A study of Triticum aestivum with 8 samples.

Results

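The arrays carried 833 expressed sequences of wheat that were each represented by a pair of probes, one marked p and one marked m in its name, and 79 of these pairs had both probes detected on all 8 arrays. A pair consists of 2 probe names that are the same up to the letter p or m and the number after it. Detected means that the scanner software flagged the spot as well above its local background. The 158 probes of the 79 pairs are a small share of the 37826 non-control probes of the array. The files do not explain the letters, the number or the contigs. The letters are read here as the plus and the minus strand of the sequence, which is an assumption, and no probe sequence was at hand to check it.

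Genes are read from one strand of the DNA, but many loci also give RNA from the other strand, either as a natural antisense transcript or because neighbouring genes overlap. Expressed sequence tags, the partial cDNA copies from which wheat arrays were built, do not always reveal the direction of transcription, and a design with one probe per strand covers both possibilities. With a labelling kit that primes on the poly(A) tail and makes antisense cRNA, as the kit used here does, a single-stranded probe reports RNA of its own sense only.

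The study compared a synthetic hexaploid wheat line, obtained by crossing tetraploid wheat with its wild relative Aegilops tauschii, at 24 °C and after long growth at 4 °C. There were 4 groups of 2 arrays: first leaf at 24 °C, first leaf after 12 weeks at 4 °C, crown at 24 °C and crown after 6 weeks at 4 °C, all from plants first grown for 3 weeks at 24 °C. The crown is described in the labels as shoot tissue that contains the shoot apical meristem. Its free-text description for the 24 °C samples speaks of leaves, whereas title, source and tissue say crown. The labels do not say how many plants went into a sample, and the p-values measure the spread between the 2 samples of a group. Time in the cold differs between the tissues, and plants kept at 4 °C were older than those at 24 °C. Scan days differed between the groups and were the same within a group. The leaf samples at 24 °C went through a different scanner from the rest. The version of the scanner software also went with the group. Both groups at 4 °C shared a version that neither group at 24 °C had, and leaf and crown at 24 °C had different versions. Temperature, tissue, age, scan and software version therefore cannot be told apart. No probe in a pair had a gene name, and 0 of the 833 pair names were found in the RefSeq gene table, so neither tissue markers nor functions could be read for these contigs.

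A level is log2 of the background-corrected signal minus the 75th percentile of its array on the same scale, so that 0 is a bright probe and each unit is a doubling. Of the probes on the array, 72.1% to 85.6% were well above background on a given array. The dimmest level still flagged as well above background lay between -6.35 and -6.04 on the 4 arrays at 24 °C and between -8.47 and -7.89 on the 4 arrays at 4 °C. A pair could therefore be followed further down in the cold than at 24 °C, and levels at 24 °C had a higher lower limit. The 4 arrays at 4 °C were also the ones with the shared version of the scanner software, which makes the background-corrected signal. The part of the version in these limits, and in the cold falls of dim probes, was not tested. None of the 1264 spots of the members was an outlier spot, and 0 were saturated. The number of arrays limits the precision: each group mean rests on 2 values.

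Detection of one probe of a pair was common and detection of both was not. Among the 833 pairs, 228 had only the p probe on all 8 arrays, 137 only the m probe, 79 both and 389 neither. The p probe was detected throughout in 36.9% of pairs and the m probe in 25.9%, against 65% of all probes. In pairs with the p probe detected throughout, the m probe was so in 25.7%, close to its 25.9% over all pairs. Detection of one probe throughout thus hardly went with that of the other. On at least 1 array, both probes were detected in 368 pairs, and 97 pairs had no detected spot at all. The rule is a threshold, and 12 pairs missed it by 1 spot of 16. The pairs nearest to it on the inside were rwhei4p06, whkp18g06 and rwhvd19p11, by margins of 0.03, 0.08 and 0.10 over the dimmest flagged level of an array. On the second crown array at 24 °C, m of rwhei4p06 read -6.05 and p of rwhvd19p11 -5.99. The p probe of whkp18g06 read -7.81 on the first leaf array at 4 °C. Just outside lay rwhei10f24, MUGEST2003_23lib_Contig14839 and whvd6e11, each with 1 spot not well above background and lowest levels of -7.85, -8.12 and -6.01.

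The source of a sequence, read from its name, went with the strand that was detected. Names of the form MUGEST2003_23lib_Contig denote contigs of a sequence assembly, and the remaining names start with wh or with rwh, as clone names do. Of 574 assembly contigs, 180 had only the p probe detected throughout, 72 only the m probe and 40 both. Of 141 wh names, 45 had only the p probe, 11 only the m probe and 24 both. Among the 118 rwh names the order was turned, with 3 showing only the p probe, 54 only the m probe and 15 both. The pairs with both probes detected made up 6.97% of assembly contigs, 12.7% of rwh names and 17% of wh names. Within the 79 pairs the same order appeared in the brighter probe: by the mean over the groups, p was brighter in 27 of 40 assembly contigs and 17 of 24 wh names, and m was brighter in 12 of 15 rwh names. What the prefixes stand for is not given in the files.

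**Figure D1:**
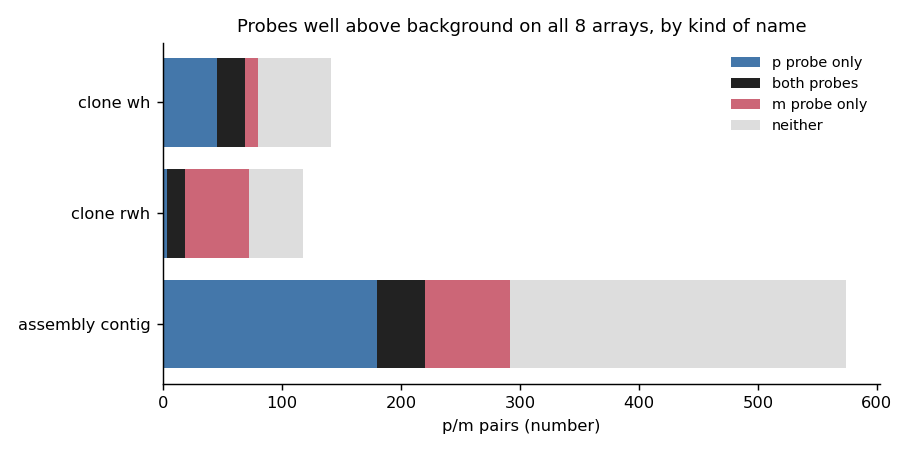
Number of p/m pairs by class of name (assembly contigs, names starting with wh, names starting with rwh), split by which probe was well above background on all 8 arrays. The rwh names have 54 pairs with only the m probe and 3 with only the p probe, the reverse of the other classes.

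The probes of a pair mostly stood at different levels. The p probe was brighter on every array in 30 pairs, the m probe in 21, and in 28 pairs the brighter probe differed between arrays. A gap of at least 2-fold on all 8 arrays was present in 20 pairs toward p and in 14 toward m, and 3 pairs stayed within 2-fold on all 8 arrays: MUGEST2003_23lib_Contig13843, rwhhg16a01 and whcs20j24. These levels are descriptions, because 2 probes also differ in how well they bind. The median size of the gap was 1.78 in leaf at 24 °C, 2.60 in leaf at 4 °C, 1.97 in crown at 24 °C and 2.36 in crown at 4 °C, all as differences of log2 levels.

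The most unequal pairs had a very bright probe and a dim one. In whsc10d08 the p probe read 4.68 and 4.63 in leaf at 24 °C, 1.68 and 1.58 in leaf at 4 °C, 5.05 and 5.41 in crown at 24 °C, and 3.43 and 3.08 in crown at 4 °C. Its m probe read -3.87 and -4.14, -6.53 and -6.94, -4.96 and -4.05, and -5.51 and -5.56 in the same order. The p probe was 473-fold brighter on average, and both probes were lowest in the cold leaf. In whvh11j14 the p probe was 127-fold brighter, with group means from -0.41 to 3.18 for p and from -6.49 to -4.16 for m. The m probe of rwhei8j02 was 239-fold brighter, with group means from 1.75 to 2.48, while p ranged from -7.52 to -4.00. In rwhec15i11 the m probe stood at 3.49 and 3.67 in leaf at 24 °C, 1.73 and 1.61 in leaf at 4 °C, 0.10 and 0.62 in crown at 24 °C, and 0.23 and 0.23 in crown at 4 °C, and its p probe stayed between -6.08 and -3.60. Every array of these pairs showed the same probe on top.

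**Figure D2:**
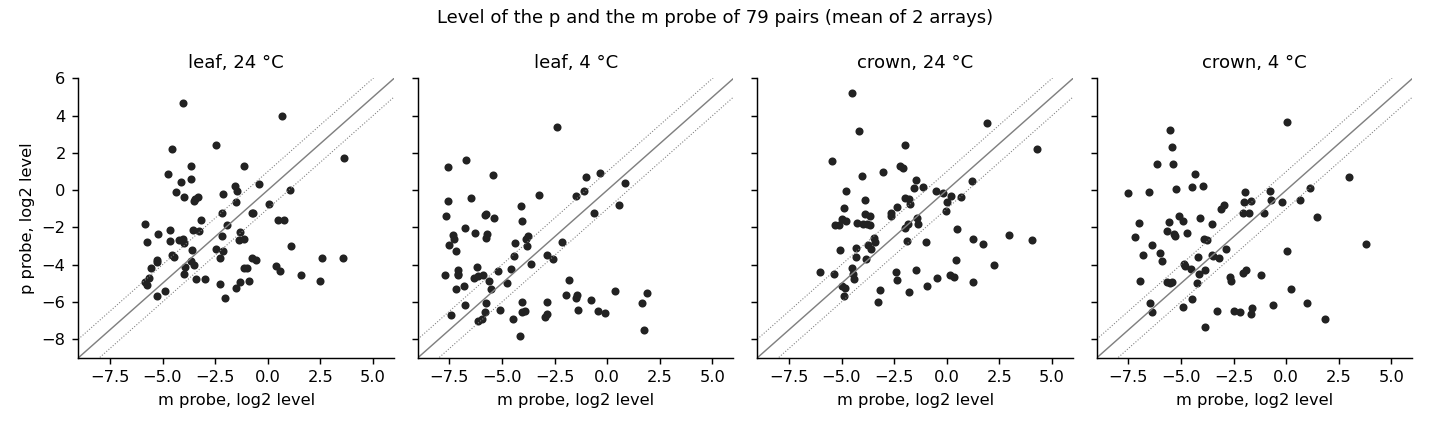
Level of the p probe against level of the m probe (log2 signal minus the array's 75th percentile) for the 79 pairs, one panel per group, each point the mean of 2 arrays; the diagonal marks equal levels and the dotted lines a 2-fold gap. Points scatter on both sides of the diagonal and are not ordered along it.

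Across the 79 pairs of an array, a bright p probe did not go with a bright m probe. Pearson's r of the p level with the m level ranged from -0.06 to 0.14 over the 8 arrays. Within a pair, the probes moved together over the arrays to a varying degree: r over the 8 arrays had a median of 0.65, quartiles of 0.36 and 0.87, and a range from -0.97 to 0.997. It was above 0.9 in 17 pairs and below 0 in 14. The p probe set against m probes of the other contigs, 6162 combinations in all, gave a median of 0.53, with 51.7% above 0.5 and 24.7% below 0. These r values are descriptions over 8 arrays that fall into 4 groups, and the arrays share their scaling. The numbers at the end of the names differed by a median of 112 within a pair. The 25 pairs whose numbers differed by under 60 had a median r of 0.65, and the other 54 also had 0.65. The 2 spots of a pair lay at least 9 rows or columns apart on the slide.

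Most of the paired probes were lower in leaf after the cold. Of the 158 probes, 107 fell and 7 rose, and 44 did not pass the test, which required an adjusted p under 0.05 (limma, Benjamini-Hochberg over 29604 probes) and a change of at least 2-fold. All 158 were tested. The share called was 72.2%, against 33.5% of all probes tested, and the share that fell was 67.7%, against 20.6%. The share that rose was 4.43%, against 12.9%. The median change was -1.69, beside -0.09 for all probes tested. Among the probes of pairs with a single detected probe, 21.9% of 228 p probes and 27.7% of 137 m probes fell, and of the 24596 probes detected on all 8 arrays 20.2% fell. Of the members whose level in leaf at 24 °C was at least -2, 42 of 61 fell, or 68.9%, against 18% of all probes detected on all 8 arrays in that range. Fewer cells of a type and less RNA per cell cannot be told apart in these tissue samples.

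The most frequent outcome in the cold leaf was a fall of both strands of a contig. Both probes fell in 38 pairs and rose in 1, together 39 of 79, beside 35.1% of the 174 pairs of the array with both probes tested. Counted singly, the p probe fell in 52 pairs and the m probe in 55, so many joint falls follow from these counts alone. Whether the probes fell together more often than that was not tested. In 14 pairs only the p probe passed the test, in 18 only the m probe, and in 6 neither. Opposite calls were made in 2 pairs, or 2 of 79, against 5.17% of those 174 pairs. The strongest joint fall was that of whkp18g06. Its m probe read 2.44 and 2.69 in leaf at 24 °C and -4.28 and -3.99 at 4 °C, and its p probe -3.78 and -3.53 against -7.81 and -7.82. The m signal thus dropped 104-fold (log2 change -6.70, SE 0.34, adjusted p = 2.89e-05, limma) and the p signal 17.9-fold (-4.17, SE 0.19, adjusted p = 1.83e-05). In whrd7e23 the p probe read -2.89 and -2.45 at 24 °C and -6.51 and -6.53 at 4 °C, and the m probe -1.54 and -1.19 against -5.91 and -5.68. Their changes were -3.86 (SE 0.18) and -4.43 (SE 0.29), with adjusted p of 2.22e-05 and 7.02e-05 by limma. With normexp the changes of the p probes were -2.09 in whkp18g06 and -2.49 in whrd7e23.

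MUGEST2003_23lib_Contig16480 was the pair in which both strands rose in the cold leaf. The p probe read -2.83 and -2.66 at 24 °C and 0.98 and 0.90 at 4 °C. The m probe read -4.81 and -4.45 at 24 °C and -0.36 and -0.35 at 4 °C. The rises were 12.9-fold for p (log2 change 3.69, SE 0.10, adjusted p = 5.22e-06, limma) and 19.4-fold for m (4.28, SE 0.13, adjusted p = 6.38e-06). With normexp the log2 changes were 2.75 and 2.73. In crown its p probe stayed low, at -1.76 and -2.01 at 24 °C and -2.61 and -2.61 at 4 °C, a change of -0.72 that missed the 2-fold limit, whereas the m probe rose 2.62-fold, from -5.29 and -5.32 to -4.00 and -3.83.

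In 43 of the 79 pairs the balance between the strands shifted in the cold leaf, as measured by the change of the p minus m difference. Strand balance here and below means that difference, so the term rests on the assumed reading of the letters. The scaling of the array and any fixed difference in binding cancel from the difference. The difference rose in 27 pairs and fell in 16. The share was 54.4%, beside 51.5% of all 99 pairs of the array that were tested. Those 99 include the 79 pairs, so the closeness of the shares says little. In every comparison, the pairs of the array used as reference likewise include the 79. Background correction does not cancel from the difference, and with normexp the leaf count was 31 in place of 43.

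The largest rise of p minus m in leaf was in MUGEST2003_23lib_Contig9567. Its m probe went from -1.04 and -1.19 at 24 °C to -7.39 and -7.74 at 4 °C, while p went from 1.18 and 1.40 to -0.56 and -0.63. Both probes fell, m by far the more, and the difference rose by 4.56 (SE 0.38, adjusted p = 0.000211, limma). In MUGEST2003_23lib_Contig7931 the p probe kept to 1.26 and 1.36 at 24 °C and 1.29 and 1.21 at 4 °C, and the m probe went from -3.67 and -3.65 to -7.31 and -7.85. The difference rose by 3.86 (SE 0.31, adjusted p = 0.000211, limma). In MUGEST2003_23lib_Contig1887 the m probe fell by 3.40, from -0.89 and -0.52 to -4.05 and -4.15, and the p probe read -1.26 and -1.19 at 24 °C and -0.81 and -0.85 at 4 °C, so that the brighter strand changed from m to p (rise of the difference 3.79, SE 0.27, adjusted p = 0.000128, limma). With background correction from the raw spot signals (normexp with an offset), which compresses dim levels, the rises in the first 2 contigs were 1.95 and 2.06 and were still called.

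The opposite shift, toward the m strand, was largest in rwhem2o07. In leaf the p probe read -2.84 and -2.37 at 24 °C and -6.42 and -6.52 at 4 °C, and the m probe -1.09 and -1.14 against -0.45 and -0.46. The p minus m difference fell by 4.52 (SE 0.26, adjusted p = 8.89e-05, limma). In rwhsd14h23 the probes were called in opposite directions. The p probe fell from -4.41 and -3.99 to -6.58 and -6.50 (change -2.34, SE 0.21, adjusted p = 0.000224, limma), and the m probe rose from -5.64 and -5.41 to -4.09 and -4.03 (change 1.47, SE 0.10, adjusted p = 7.66e-05). The other opposite pair was rwhei16e06, whose p probe fell 2.32-fold, from -1.79 and -1.39 to -2.81 and -2.81, and whose m probe rose 2.07-fold, from -3.15 and -3.22 to -2.07 and -2.22. In both pairs p was brighter than m on the 2 arrays at 24 °C and dimmer on the 2 arrays at 4 °C. In MUGEST2003_23lib_Contig7804 the bright m probe stayed within 2-fold, at 1.13 and 1.04 against 1.90 and 1.89, and the p probe fell 5.71-fold, which lowered the difference by 3.33 (SE 0.22, adjusted p = 0.000118, limma). With normexp the changes of the difference in rwhem2o07 and rwhsd14h23 were -2.95 and -1.58.

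**Figure D3:**
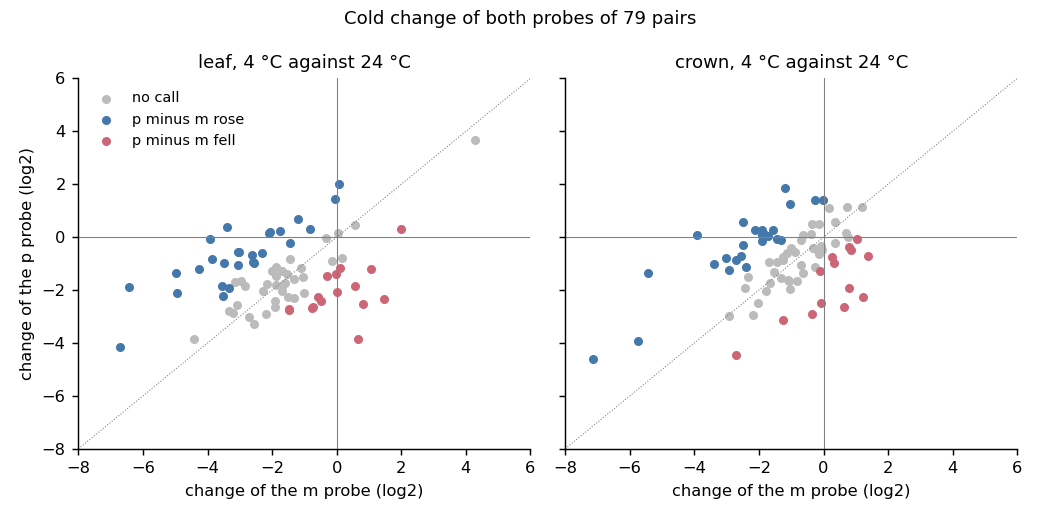
Change of the p probe against change of the m probe in the cold (log2, 4 °C minus 24 °C) for the 79 pairs, leaf on one side and crown on the other; the diagonal marks equal change. Most points lie in the quadrant where both changes are negative, with 38 pairs called lower by both probes in leaf and 18 in crown.

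In crown fewer of the paired probes were lower after the cold, by count, than in leaf. Of 158 probes, 71 fell, 11 rose and 76 did not pass. The share called was 51.9%, against 36.2% of the 32204 probes tested, and 44.9% fell, against 15.9%, while 6.96% rose, against 20.3%. Of the probes detected on all 8 arrays 15.4% fell and 17% rose. The median change was -0.84, beside 0.17 for all probes tested. The direction of that median depended on the scaling: with 7 spike-in controls as the reference the median of the members was 0.16, that of all probes tested 1.16, and 19% of the members fell against 7% of all probes tested. The difference between the tissues in these counts was not tested, and the times in the cold differed. Counted singly, the p probe fell in 29 pairs and the m probe in 42, and joint falls beyond these counts were not tested for. Both probes fell in 18 pairs and rose in 1, together 19 of 79, beside 17.7% of 248 pairs of the array. Of the others, 14 pairs had only the p probe called and 24 only the m probe, and 19 had neither. Of the probes that fell, 57 did so in both tissues, which is 57 of 107 in leaf and 57 of 71 in crown, and both probes fell in both tissues in 12 pairs. Such overlaps were not counted over all probes or pairs, so these counts show no trait particular to the members.

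The deepest fall in crown was in MUGEST2003_23lib_Contig5804. The p probe read -0.83 and 0.22 at 24 °C and -4.93 and -4.87 at 4 °C, and the m probe -0.25 and 0.69 against -7.11 and -6.75. The m signal dropped 142-fold (log2 change -7.15, SE 0.33, adjusted p = 1.86e-05, limma) and the p signal 24.2-fold (-4.59, SE 0.39, adjusted p = 0.000164). The gap between the samples at 24 °C was much smaller than the change. In whkp18g06 the m probe read 3.55 and 4.60 at 24 °C and -1.65 and -1.71 at 4 °C, and p read -2.95 and -2.43 against -6.70 and -6.56. The drops were 53.8-fold and 15.4-fold, so this contig fell with both strands in both tissues. With normexp the change of its p probe in crown was -2.54.

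The crown pair that rose with both strands, rwhhg16a01, did the reverse in leaf. In crown the p probe read -4.87 and -4.68 at 24 °C and -3.64 and -3.64 at 4 °C, and the m probe -4.50 and -4.29 against -3.18 and -3.20. The rises were 2.20-fold (SE of the log2 change 0.10, adjusted p = 0.000169, limma) and 2.30-fold (SE 0.10, adjusted p = 0.000174). In leaf the p probe fell from -4.03 and -4.00 to -5.40 and -5.20 and the m probe from -3.61 and -3.44 to -5.60 and -5.48. With normexp the crown rises were 0.28 and 0.40 and were no longer called. Over the 8 arrays the probes of this contig stayed within 2-fold of each other.

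The strand balance shifted in crown in 39 pairs, 25 toward p and 14 toward m, a share of 49.4% beside 52.1% of the 119 pairs tested. With normexp the count was 33. The largest shift toward p was in MUGEST2003_23lib_Contig7931. Its m probe fell 43.3-fold, from -2.54 and -1.66 to -7.37 and -7.70, and p fell 2.54-fold, from 1.06 and 1.35 to -0.13 and -0.14 (rise of the difference 4.10, SE 0.31, adjusted p = 0.000304, limma). In MUGEST2003_23lib_Contig1403 the p probe read 1.20 and 1.43 at 24 °C and 1.38 and 1.44 at 4 °C, and m fell from -2.66 and -1.75 to -5.98 and -6.28 (rise of the difference 4.02, SE 0.30, adjusted p = 0.000304, limma). In whkp1i06 m fell from -2.60 and -1.40 to -4.49 and -4.49 while p read -0.55 and -0.25 against 0.19 and 0.17. In these 3 contigs the p probe was above the m probe on every crown array, and it was called lower in MUGEST2003_23lib_Contig7931 of the 3. With normexp the rises of the difference in MUGEST2003_23lib_Contig7931 and MUGEST2003_23lib_Contig1403 were 1.77 and 2.46.

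Opposite calls were made in 3 crown pairs, against 4.44% of 248 pairs of the array. In MUGEST2003_23lib_Contig2930 the p probe fell from -5.02 and -3.39 to -6.27 and -6.67 (change -2.26, SE 0.55, adjusted p = 0.012, limma) and m rose from -4.49 and -4.52 to -3.25 and -3.35 (change 1.21, SE 0.11, adjusted p = 0.00024). Its p probe differed more between the crown samples at 24 °C than the other probes of these 3 pairs did. In rwhei4p06 the p probe rose from -4.43 and -4.34 to -2.48 and -2.57 (change 1.86, SE 0.09, adjusted p = 1.77e-05, limma), and the m probe fell from -5.95 and -6.05 to -6.98 and -7.42 (change -1.20, SE 0.18, adjusted p = 0.00166). Those m levels at 24 °C lay just above the dimmest flagged levels of the 2 arrays, -6.09 and -6.08. In MUGEST2003_23lib_Contig6694 p rose 2.38-fold, from -3.60 and -3.61 to -2.40 and -2.30, and m fell 2.05-fold, from -4.64 and -3.99 to -5.48 and -5.22. The groups did not overlap in any of these 6 probes, but the probes were picked by their calls, so this adds no support. With normexp the change of the difference in rwhei4p06 was 1.99 in place of 3.06.

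Shifts toward m in crown were led by MUGEST2003_23lib_Contig2930, at -3.47, followed by MUGEST2003_23lib_Contig6416 and MUGEST2003_23lib_Contig4544. The p probe of MUGEST2003_23lib_Contig6416 fell 6.24-fold, from -3.57 and -2.87 to -5.90 and -5.82, and its m probe read -5.07 and -5.12 at 24 °C and -4.48 and -4.46 at 4 °C (fall of the difference 3.26, SE 0.32, adjusted p = 0.000863, limma). The p probe of MUGEST2003_23lib_Contig4544 fell 3.79-fold, from -4.91 and -3.87 to -6.17 and -6.46, and its m probe read -2.60 and -2.24 against -1.56 and -1.73 (fall of the difference 2.70, SE 0.36, adjusted p = 0.00148, limma). In both contigs the m probe read higher at 4 °C by less than the 2-fold limit. With normexp the changes of the difference in MUGEST2003_23lib_Contig2930 and MUGEST2003_23lib_Contig6416 were -1.85 and -1.58.

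The response of the strand balance to cold was set between the tissues directly. The crown change of p minus m minus the leaf change passed the test in 20 of the 79 pairs, 10 in each direction, or 25.3%, beside 19.7% of all 833 pairs. Detection was not required in this test. The 833 include 97 pairs with no detected spot, so their share is not a like reference for the members. Without the first crown sample at 4 °C the count was 13. In rwhsd14h23 the difference between the tissues was 4.57 (SE 0.34, adjusted p = 0.00144, limma over all pairs): p minus m fell by 3.81 in leaf and the change was 0.76 in crown, where both probes read lower at 4 °C. In MUGEST2003_23lib_Contig6144 it was 3.75 (SE 0.31, adjusted p = 0.00213), in rwhgc18n18 4.15 (SE 0.46, adjusted p = 0.00427) and in rwhei4p06 4.03 (SE 0.35, adjusted p = 0.00242). Of the pairs whose balance shifted in both tissues, 24 shifted in the same direction and 3 in opposite directions. The matching counts over all pairs were not made, so these are descriptions.

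At 24 °C the share of these probes that differed between crown and leaf lay below that of all probes tested, but this order depended on the scaling. Of 158 probes, 39 were higher in crown and 19 lower, or 24.7% and 12%, beside 29% and 25.9% of all tested, a total share of 36.7% beside 54.8% of the 29689 probes tested. With normexp 33 were called, or 20.9% beside 40.3%. Spike-in scaling gave 118, or 74.7% beside 67.7%, with the median of all probes tested at 1.19. Pairs with a single detected probe also lay below all probes tested in the main setting. Of their 228 p probes 19.7% were higher in crown and 13.2% lower, and of their 137 m probes 19.7% and 20.4%. The low share was thus not particular to the members. Both probes were higher in crown in 4 pairs and lower in 2, beside 17.1% of 158 pairs of the array with such joint calls, and 4 pairs had opposite calls, against 5.06% of 158 pairs. MUGEST2003_23lib_Contig6811 was higher in crown with both strands. Its p probe read -4.53 and -4.92 in leaf and -1.83 and -1.91 in crown, and m read -5.72 and -5.55 against -3.89 and -3.40, which are 7.23-fold and 3.97-fold differences. With normexp the log2 difference of its p probe was 1.43 in place of 2.85. In rwhgc18n18 p was 4.16-fold and m 2.87-fold higher in crown. The m probe of the former and the p probe of the latter were not called with normexp, at 0.46 and 0.94, and the m probe of the latter was at 1.01. MUGEST2003_23lib_Contig3165 was lower in crown with both strands: p read 0.19 and 0.50 in leaf and -2.16 and -3.71 in crown, and m read -0.44 and -0.39 against -4.11 and -3.38 (changes -3.28, SE 0.50, adjusted p = 0.00139, and -3.33, SE 0.23, adjusted p = 3.88e-05, limma). With spike-in scaling these were -2.17 and -2.21. In MUGEST2003_23lib_Contig13843 both probes were lower in crown, p by 1.34 and m by 1.35 on the log2 scale. The call of its m probe was lost without the second crown sample at 24 °C, where the change was -0.97, and neither probe was called with normexp or with spike-in scaling, the values lying between -0.78 and -0.23.

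The strand balance differed between the tissues at 24 °C in 34 pairs, or 43% beside 39.4% of the 99 pairs tested. In 18 of them p minus m was higher in crown and in 16 lower. With normexp the count was 27. The most unequal contig was MUGEST2003_23lib_Contig6144. Its p probe read 2.41 and 2.47 in leaf and -0.26 and -0.46 in crown, and its m probe -2.55 and -2.39 in leaf and 0.71 and 0.64 in crown. The p probe was 6.95-fold lower and the m probe 8.82-fold higher in crown, a change of the difference of -5.94 (SE 0.22, adjusted p = 1.19e-05, limma). MUGEST2003_23lib_Contig6416 ran the other way: p read -4.93 and -4.88 in leaf and -3.57 and -2.87 in crown, and m -1.32 and -1.34 against -5.07 and -5.12 (change 5.45, SE 0.32, adjusted p = 0.000103, limma). In MUGEST2003_23lib_Contig13608 the m probe was 10.4-fold lower in crown, and p, at -5.58 and -4.96 in leaf and -5.62 and -5.70 in crown, did not pass the test. The m probe of rwhem2o07 was 5.89-fold lower and its p probe 2.34-fold higher in crown. With normexp the change of the difference was 2.96 in MUGEST2003_23lib_Contig6416 and 1.85 in MUGEST2003_23lib_Contig13608. It was -1.44 in rwhsd14h23 and -1.67 in MUGEST2003_23lib_Contig4544, in place of -3.49 and -3.06.

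After the cold, crown stood above leaf in most called probes of the pairs, by a margin that depended on the scaling. Of 158 probes, 80 were higher in crown and 21 lower, 63.9% in all beside 58.3% of the 32489 probes tested, and 50.6% were higher beside 34.6% and 13.3% lower beside 23.7%. With normexp 66 were called, or 41.8% beside 44%, with 31.6% higher and 10.1% lower. With quantile normalization 30.4% were higher, beside 26.6% of all tested, and 20.9% lower, beside 30%. The total share was then 51.3%, beside 56.6%. Both probes were higher in 26 pairs and lower in 4, beside 32.7% of 251 pairs of the array with such joint calls, and opposite calls were made in 6, against 6.77% of 251 pairs. In whvh8p02 p read -3.65 and -3.36 in cold leaf and -0.53 and -0.74 in cold crown, and m -3.03 and -2.66 against -0.41 and 0.02. In MUGEST2003_23lib_Contig3085 p read -4.57 and -4.69 against -1.72 and -1.87, and m -6.11 and -6.21 against -3.34 and -3.69. The p and m probes were 7.30-fold and 6.30-fold higher in crown in the former contig and 7.12-fold and 6.24-fold in the latter. With spike-in scaling, which moved the median of all probes tested to 1.94, the log2 differences were 4.58 and 4.37 in the former and 4.55 and 4.36 in the latter, and with normexp that of the m probe in the latter was 1.40. MUGEST2003_23lib_Contig16480 was lower in cold crown, 11.7-fold with p and 11.9-fold with m, with log2 differences of -1.84 and -1.85 with spike-in scaling. MUGEST2003_23lib_Contig3165 was lower by 2.55 with p and by 1.77 with m on the log2 scale, and neither was called with spike-in scaling, at -0.83 and -0.06.

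The strand balance differed between cold crown and cold leaf in 38 pairs, 19 in each direction, or 48.1% beside 43.6% of 133 pairs tested. The largest difference was in rwhem2o07. In cold leaf its p probe read -6.42 and -6.52 and its m probe -0.45 and -0.46, and in cold crown p read -2.62 and -2.69 and m -3.77 and -3.76. The balance differed by 7.12 (SE 0.26, adjusted p = 1.47e-05, limma), with p 14.1-fold higher and m 9.92-fold lower in crown. In rwhei4p06 p read -6.45 and -6.47 in cold leaf and -2.48 and -2.57 in cold crown, and m -4.96 and -5.20 against -6.98 and -7.42, a difference of 6.06 (SE 0.24, adjusted p = 1.47e-05, limma). In rwhgc18n18 p was 6.46-fold higher and m 3.99-fold lower in cold crown, although both were higher in crown at 24 °C. In the reverse direction, p minus m was lower in cold crown by 4.47 in MUGEST2003_23lib_Contig4544, by 3.62 in whrd7e23 and by 2.82 in MUGEST2003_23lib_Contig4103. With normexp the differences in rwhei4p06 and rwhgc18n18 were 3.03 and 2.69, and those in MUGEST2003_23lib_Contig4544 and whrd7e23 were -2.96 and -2.18. In MUGEST2003_23lib_Contig13608, where the difference was 4.69, it was 3.07.

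In 6 pairs each strand was the brighter one, by at least 2-fold, on both arrays of some group. They were rwhem2o07, rwhei4p06, rwhsd14h23, rwhca9p14, MUGEST2003_23lib_Contig6416 and MUGEST2003_23lib_Contig5380. In rwhem2o07 m was brighter in both leaf groups and p in both crown groups. In rwhsd14h23 p was brighter in leaf at 24 °C and m in the other 3 groups. In rwhca9p14 the m probe kept between -2.65 and -1.91 on all arrays, and p read -3.75 and -3.58 in leaf at 24 °C and -0.58 and -0.67 in crown at 4 °C. In MUGEST2003_23lib_Contig5380 the p probe read -0.43 and -0.25 in leaf at 24 °C and -0.55 and -0.53 in crown at 4 °C, and its m probe -3.40 and -3.21 against 0.61 and 0.67. The m signal of that contig was 22.8-fold higher in cold crown than in cold leaf. These contigs were picked by their levels, so the order of the strands is a description.

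**Figure D4:**
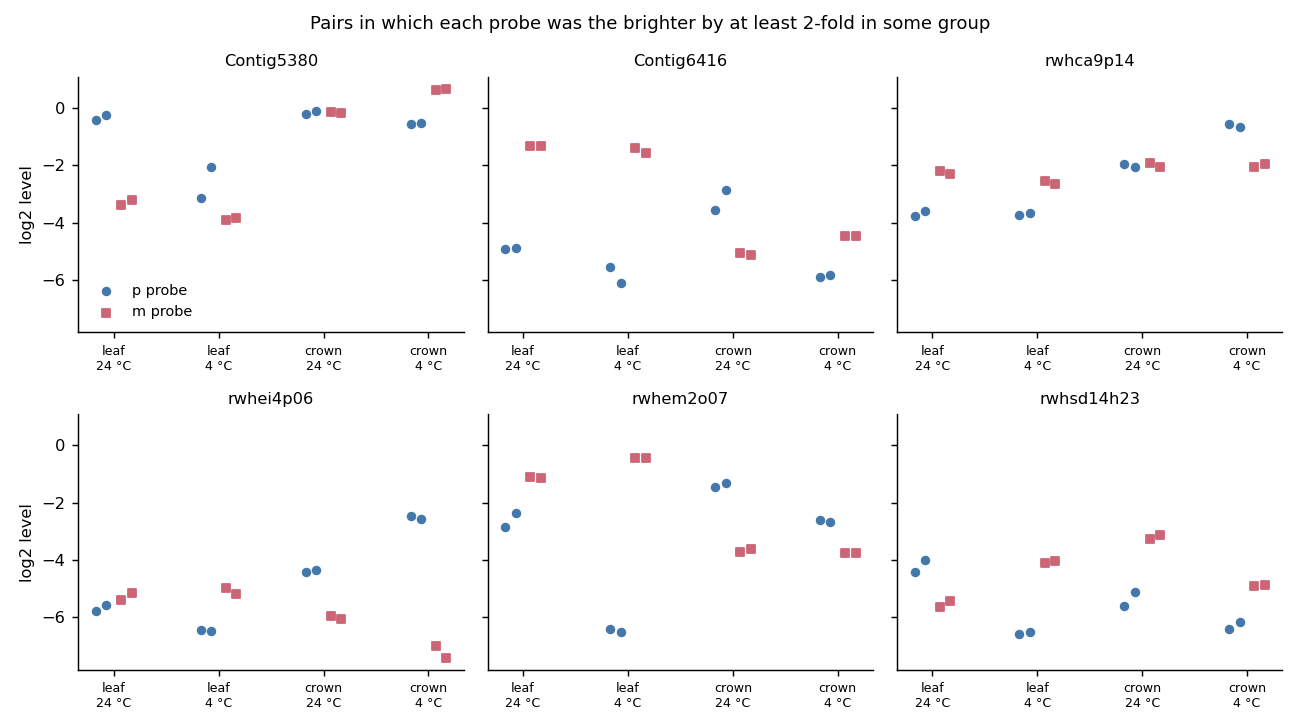
Levels (log2 signal minus the array's 75th percentile) of the p and the m probe on each of the 8 arrays for the 6 pairs in which each probe was at least 2-fold brighter in some group; each point is 1 array. In rwhem2o07 the m probe lies above in leaf and the p probe in crown.

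The paired probes also differed between the samples of a group, in one direction, at 24 °C. In leaf at 24 °C, the second sample was higher than the first in 114 of the 158 probes, with a median gap of 0.18, and in crown at 24 °C in 113, with a median gap of 0.16. Over the 24596 probes detected on all 8 arrays the medians were within 0.02 of 0 in every group. At 4 °C the medians of the paired probes were -0.003 in leaf and -0.05 in crown. In crown at 24 °C, 9 of the 158 probes were at least 2-fold higher in the second sample, or 5.70%, beside 0.439% of all. Across the 158 probes, the gap between the crown samples at 24 °C had a Pearson's r of -0.45 with the cold change in leaf, which rests on other arrays, beside -0.15 over the 24596 probes. The gap between the leaf samples at 24 °C had an r of 0.01 with the cold change in crown. The cold changes of the tissues had an r of 0.55 across the 158 probes and of 0.20 across all. In each of these correlations all probes share the same few arrays, with 2 probes per contig, and probes are not independent replicates. The part of these gaps in the cold changes was not tested.

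**Figure D5:**
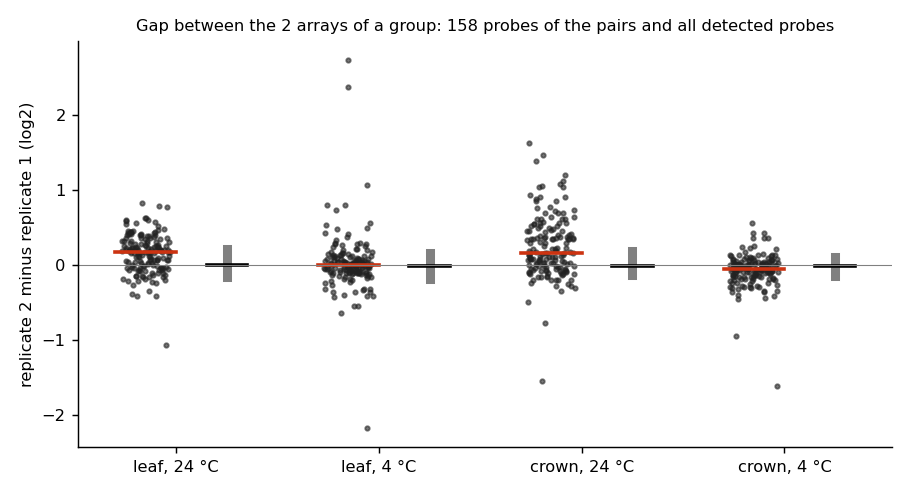
Difference between the second and the first sample of each group (log2 level) as points for the 158 probes of the pairs (red line, their median) and, for all probes detected on all 8 arrays, as a grey bar between the outer deciles with the median in black. The paired probes lie above 0 in both groups at 24 °C, at 0.18 and 0.16, and near 0 at 4 °C.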

How the data were processed

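Cy3-labelled cRNA from total RNA was hybridised to 1-colour Agilent arrays, 2 per group in 4 groups. The deposited scanner files hold the authors' intensity values per spot, made with Agilent Feature Extraction (9.5 per the submitters' processing notes; 9.5.3.1, 10.5.1.1 and 10.7.3.1 per the file headers). The deposited series table holds the authors' scaled intensities of the same arrays, which were put on the log2 scale and served as an alternative.

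Log2 of the processed signal minus the array's 75th percentile was fitted with limma 3.58.1 (R 4.3.3) to the 4 group means over all non-control probes. A probe was tested where 1 or both groups compared had it well above background in each of their samples. The p minus m difference was fitted over all 833 pairs and tested where both probes were well above background on the 4 arrays compared. The contrast between tissues was chosen after seeing the data and adjusted over all 833 pairs, without a filter on detection. Calls required an adjusted p (Benjamini-Hochberg) under 0.05 and a 2-fold change. With 2 against 2 arrays, the smallest two-sided exact permutation p is 0.333, so no such test was used. The fits were tested on simulated data.

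The members and lists were chosen with earlier results of these data known. Named pairs were, per comparison, the 3 largest called rises and 3 largest called falls of p minus m, up to 3 opposite calls, and up to 2 pairs called higher and 2 called lower by both probes. Over all arrays they were the 3 largest level gaps in each direction, up to 5 pairs in which each probe was brighter in some group, and the pairs next to the detection threshold. The remaining names in the text were chosen after their values were seen: the other pairs near that threshold, rwhca9p14, whcs20j24 and whsd5o05. Alternatives covered background correction, scaling, filters, the fold threshold, slide and replicate blocks and leaving out each array. Same-numbered samples were not taken as paired: the correlations of their deviations between groups ran from -0.09 to 0.10 over probes and from -0.11 to 0.18 over p minus m differences. No probe sequence was used here.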

Additional observations from a re-analysis of the deposited data

Results flagged for a closer look

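The cold change of the p minus m difference was set apart between crown and leaf by a test of the difference itself in 20 of the 79 pairs (limma, adjusted p under 0.05 over all 833 pairs and at least 2-fold), beside 19.7% of all pairs, detected or not. Among the named pairs, the crown change exceeded the leaf change by 4.57 in rwhsd14h23, by 4.15 in rwhgc18n18 and by 4.03 in rwhei4p06, all on the log2 scale. In rwhgc18n18 p minus m fell by 2.44 in leaf and rose by 1.71 in crown. The crown change lay below the leaf change in MUGEST2003_23lib_Contig4103, at -2.67, in MUGEST2003_23lib_Contig2930, at -3.02, and in whsd5o05, at -3.28, a pair chosen after its value was seen. In MUGEST2003_23lib_Contig4103 all 4 probe changes were called lower, p the less in leaf (-1.13 against -1.89 for m) and the more in crown (-3.14 against -1.24). In whsd5o05 the p probe read -2.05 and -2.28 in leaf at 24 °C and -2.03 and -1.99 at 4 °C, while its m probe read -4.74 and -4.54 against -6.53 and -6.94. The leaf plants had 12 weeks and the crown plants 6 weeks at 4 °C, and each group had its own scan day. The software version differed between leaf and crown at 24 °C. Tissue, time, scan and software version cannot be told apart here.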

How the results depend on the processing

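Of 1176 recomputed values of named pairs, 1165 kept their direction and call, 11 lost the call and 0 reversed. Many of these settings could not change an estimate, such as spike-in scaling for p minus m or leaving out an array outside the comparison. Most named pairs were also picked as the largest called changes, so this count is not a measure of robustness. Of 322 recomputed counts, 306 stayed within 1.5 times. Among these were the pairs with a shifted p minus m difference. With normexp they numbered 31 in cold leaf and 33 in cold crown, in place of 43 and 39. With normexp, probes called between tissues were 33 at 24 °C and 66 at 4 °C, the count of pairs with each probe brighter in some group was 3, the median leaf change -1.44, the median r 0.67, and 4 probes rose in leaf and 0 in crown (limma). With spike-in scaling the median crown change reversed to 0.16, that in leaf was -1.29, 30 crown probes fell and 38 rose, and 118 probes differed between tissues at 24 °C. The median leaf change was -1.18 with quantile normalization, -1.46 with median scaling and -1.38 with 1 common floor; the median r was 0.60 with quantile normalization and 0.62 with the floor. Without a fold threshold 108 probes differed between tissues at 24 °C, 16 rose in cold leaf and 22 in cold crown. Pairs with each probe brighter in some group numbered 15 at 1.5-fold and 1 at 4-fold, and pairs with p brighter throughout 13 at 4-fold. With the slide as a random block (estimated correlation -0.72 for probes and -0.86 for differences) the contrast between tissues called 35 pairs. No slide held arrays of more than 1 group, so this setting cannot separate slide from group and its count is no check. With the replicate block it called 17 of the 79 pairs, the leaf and crown differences 43 and 39, and those between tissues 35 and 38; the probes called were 114 and 81 in the cold comparisons and 58 and 101 between tissues, and no other call was turned.

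Leaving out 1 array at a time gave 13 to 21 pairs for the contrast between tissues, 38 to 44 and 32 to 39 for the leaf and crown differences, 29 to 37 at 24 °C and 33 to 38 at 4 °C. Probes called ranged from 107 to 115, 73 to 83, 53 to 63 and 95 to 100 in these comparisons. With 1 array left in a group, that array was assumed to vary like the others. Depth here is signal over background: the lowest level well above background at 4 °C, -8.47 to -7.89, limits the size of a fall that a dim member can show, and that at 24 °C, -6.35 to -6.04, limits the size of a rise.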
